A study of Oryzias latipes with 2 samples.

Results

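Of the 20259 lines in the gene tables of stage 24 medaka embryos, 168 join the identifiers of 2 or 3 genes under 1 read count and 1 level. They were found by the plus sign in the gene cell, without use of the read counts or levels. Whether reads played a part in placing that sign is not stated in the sources used here. Of these joined entries 160 hold 2 identifiers and 8 hold 3, 344 identifiers in all, with 455 transcripts. None of the 344 occurs on any other line, so the joined entry is the sole record of each of these genes. The samples were 2 pools of 60 whole embryos of medaka (Oryzias latipes, a small freshwater fish and vertebrate model), raised at 26 °C, freed of the chorion by hand and titled ICab, a laboratory strain, with no treatment or mutation named. They are replicates of 1 group, RNA-seq libraries with 23055861 counted reads in replicate 2 and 22661195 in replicate 1. Whether the pools are separate clutches is not stated, so their spread may be technical. In RNA of whole embryos, few cells with much of a transcript and many cells with little of it cannot be told apart.

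A gene in an annotation is a set of transcripts drawn from 1 locus. Genome annotations often place transcripts of neighbouring or overlapping loci on the same bases, or list fragments of a single locus as separate genes, and a short read from a shared base cannot be given to either. Programs that count reads can then set such genes aside, split their reads, or report them together. The sources used here give neither how these tables came to join genes nor whether counting used the strand, so a joined level belongs to all the genes of the entry together. At stage 24, in mid-somitogenesis, muscle, nervous system, eyes and heart are forming at once, and a whole-embryo library averages over them. The tables and the gene list at hand pair none of these identifiers with a gene name (0 rows of that list carry an Ensembl medaka identifier), so entries are given by identifier and no role is stated for them.

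Joined entries were mostly pairs of genes with 1 transcript each. As many transcripts as genes were listed for 103 of the 168, and more transcripts than genes for 65. The number of transcripts was 2 for 100 entries, 3 for 41, 4 for 13 and 5 for 8, while 6 entries held between 6 and 8. Joined entries lay all along the tables, with between 12 and 22 in each of 10 equal stretches of lines. They made up 0.829% of all lines and 4.31% of the lines with several transcripts.

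Most joined entries were expressed at this stage. A level of 1 RPKM or more (RPKM is the number of reads per kilobase and per 1000000 reads) was reached in both replicates by 151 of 168 entries, or 89.9%. Lines of 1 gene, weighted to the same mix of transcript numbers, reached it in 78.4% of cases, and all lines together in 69.6%. With 2 transcripts, 88 of 100 joined entries passed, against 2237 of 2876 lines of 1 gene (77.8%). With 3 transcripts, 39 of 41 joined entries passed (95.1%), against 523 of 657 lines of 1 gene (79.6%). All 13 joined entries with 4 transcripts and all 8 with 5 passed, against 77.7% of 139 and 75% of 40 lines of 1 gene. At 6 transcripts the order was the other way, with 1 of 3 joined entries against 8 of 11 lines of 1 gene, and at 7 it was 1 of 2 against 1 of 1. These shares describe the lines of the tables in the same pair of libraries and were not tested, because lines are not replicates.

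Levels of joined entries ranged from silence to the second highest line of the table. Their median was 37.4 RPKM in replicate 2 and 39.6 RPKM in replicate 1, and the middle 50% of the means lay between 14.8 and 95.2 RPKM. By mean of the replicates, 13 entries were under 1 RPKM, 23 between 1 and 10, 90 between 10 and 100, 33 between 100 and 1000, and 9 at 1000 RPKM or more. Lines of 1 gene with several transcripts had a median of 12.5 RPKM, with 769 of 3727 (20.6%) under 1 RPKM and 22 (0.590%) at 1000 RPKM or more. Entries of 2 genes had a median of 40.03 RPKM and the 8 entries of 3 genes had a median of 25.9 RPKM.

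**Figure D1:**
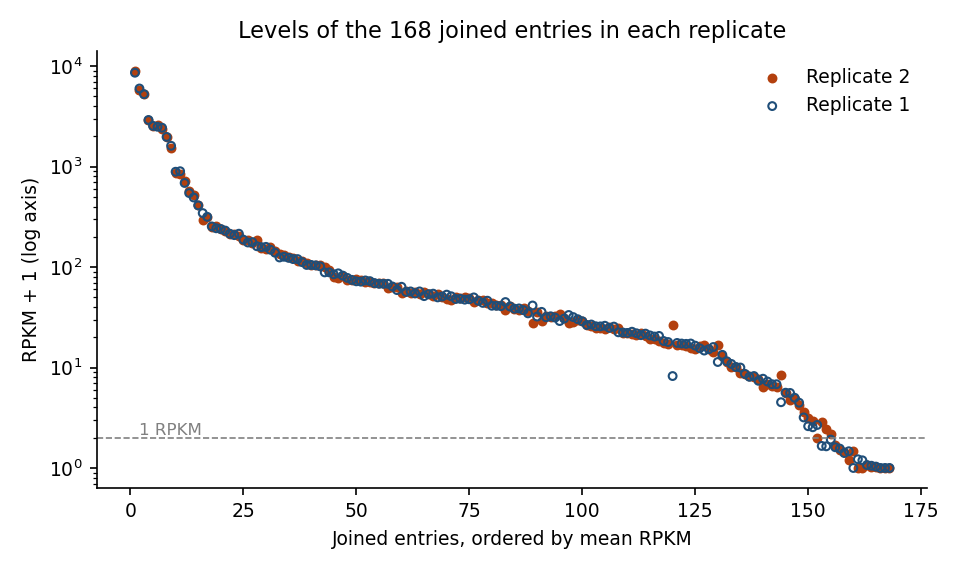
RPKM + 1 (log axis) of the 168 joined entries, ordered by mean RPKM, with replicate 2 as filled and replicate 1 as open points and 1 RPKM as a dashed line. The replicates overlie each other for most entries, 9 entries are at 1000 RPKM or more, and 13 have a mean under 1 RPKM.

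At the same number of transcripts, joined entries were listed at higher levels than lines of 1 gene from 2 to 5 transcripts. Medians were 30.96 RPKM against 12.3 RPKM with 2 transcripts, 49.8 RPKM against 13.4 RPKM with 3, 40.6 RPKM against 14.3 RPKM with 4, and 35.9 RPKM against 12.4 RPKM with 5, with joined entries given first in each pair. The order was the other way for the 3 joined entries with 6 transcripts, at a median of 0.240 RPKM against 12.4 RPKM for 11 lines of 1 gene. Only 3 joined entries, and 3 lines of 1 gene, had 7 or 8 transcripts. In log2(RPKM + 1), their joined median minus that of lines of 1 gene was -0.96 at 7 transcripts and 5.50 at 8. Both values enter the average given next. On the log2(RPKM + 1) scale, the difference of medians averaged over transcript numbers, with the numbers of joined entries as weights, was 1.34, or 2.53-fold. A joined entry lists 2 or 3 genes under 1 read count, and how its reads divide among them is not known. When its RPKM was divided by its number of genes, the difference came down to 0.37. The lines of 1 gene in that reading still had as many transcripts as the whole entry. Lines of 1 gene and 1 transcript, not used there, had a lower median of 6.63 RPKM. When the 100 joined entries of 2 genes and 2 transcripts were set beside 13260 pairs of adjacent lines of 1 gene and 1 transcript with their RPKM summed, the medians were 30.96 RPKM and 22.97 RPKM, and 88% of the joined entries against 86.7% of the pairs reached 1 RPKM in both replicates. On the log2(RPKM + 1) scale that is a difference of 0.41. The adjacent pairs overlapped, as a line could be paired both with the line before and with the line after. The share detected was thus close between joined entries and summed pairs, and the difference in level was smaller by both of these readings, which were chosen after seeing the data. Whether the RPKM of a joined entry is a sum over its genes was not tested.

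**Figure D2:**
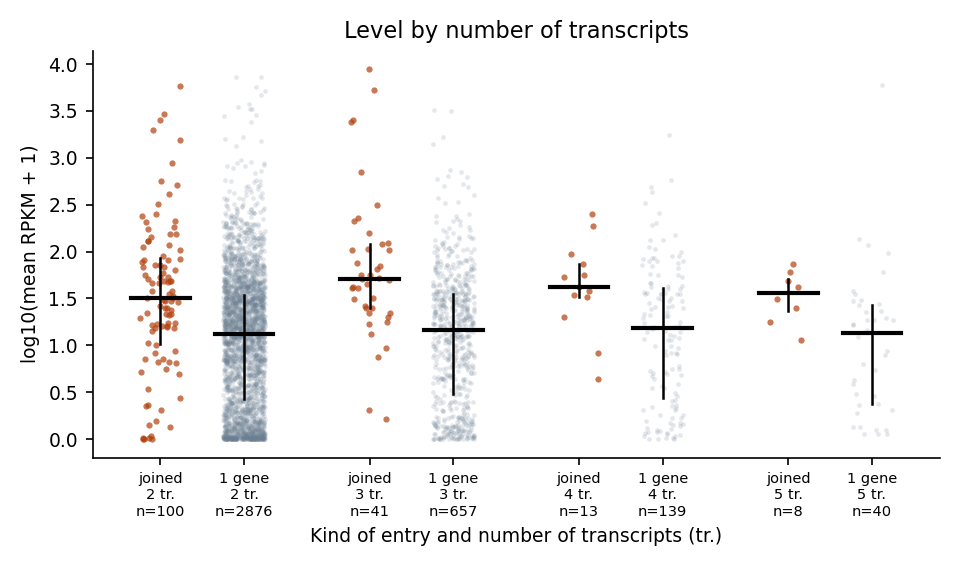
Log10 of mean RPKM + 1 for joined entries (left of each pair) and lines of 1 gene (right) with 2, 3, 4 and 5 transcripts (tr.); points are lines, horizontal bars medians and vertical bars the middle 50%. Joined medians are 30.96, 49.8, 40.6 and 35.9 RPKM, each above the median of the lines of 1 gene beside it, and the ranges overlap broadly.

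A length can be worked back from the count, the RPKM and the library total. This implied length could differ between the replicates of the same entry, so it is not a fixed length of the entry. As a mean of the replicates it had a median of 1202 bp over the 162 joined entries with reads in both. At 2 transcripts it was 1126 bp for joined entries and 1295 bp for lines of 1 gene. At 3 transcripts it was 1258 bp for joined entries and 1344 bp for lines of 1 gene. The joined median was also the lower one at 4 and 5 transcripts, and so was the value of the 1 joined entry at 8. The joined value was the higher one at 6 transcripts, at 2519 bp against 1322 bp, and at 7, at 821.5 bp against 676 bp. At each of these numbers it came from 1 joined entry, the only one with reads in both replicates. A whole length, equal in both replicates within 0.001 bp, was found for 20 of 162 joined entries (12.3%), against 998 of 3500 lines of 1 gene with several transcripts (28.5%).

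A few joined entries took most of the reads. Together the 168 entries took up 4.98% of all counted reads of replicate 2 and 4.93% of those of replicate 1. The 95% Clopper-Pearson intervals, which are exact, ran from 4.97% to 4.98% and from 4.92% to 4.94%. They cover at most counting error, and only for independent reads, which amplified copies of a read are not. The intervals of the replicates did not overlap. Among joined entries, the top 8 by reads made up 70.04% of the joined total in replicate 2 and 69.7% in replicate 1. Without the entry with most reads, the joined share of all reads was 3.79% as a mean of the replicates, against 4.95% with it. Of the 88 lines with a mean of at least 2048 RPKM, 7 were joined entries, or 4.17% of the joined entries against 0.402% of the lines of 1 gene with several transcripts. Lines of 1 gene in the same mix of transcript numbers reached that level in 0.442% of cases. Among the 1000 lines with the highest RPKM, 34 were joined entries, or 20.2% of the joined entries, against 6.36% of the lines of 1 gene with several transcripts. Neither comparison takes into account that a joined entry lists several genes.

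The most abundant joined entry was ENSORLG00000012618+ENSORLG00000012625, the second highest of all lines. It reached 9019.9 RPKM in replicate 2 and 8595.8 in replicate 1, from 276028 and 257191 reads on 3 transcripts. ENSORLG00000009244+ENSORLG00000009261 ranked 7 among all lines, with 5780.5 RPKM in replicate 2 and 5985.9 in replicate 1. ENSORLG00000015732+ENSORLG00000015744 ranked 9, with 5240.3 RPKM in replicate 2 and 5255.2 in replicate 1. These are 3 of the 9 most abundant lines of the whole table, each with implied lengths between 893 and 1328 bp. The next 4 lay close together. ENSORLG00000006304+ENSORLG00000006307 reached 2916.7 RPKM in replicate 2 and 2908.6 RPKM in replicate 1. ENSORLG00000006863+ENSORLG00000006882 reached 2556.2 RPKM in replicate 2 and 2541.3 RPKM in replicate 1. ENSORLG00000003097+ENSORLG00000003130 had 2601.5 RPKM in replicate 2 and 2490.2 RPKM in replicate 1, which put its replicates on either side of the entry before. ENSORLG00000013520+ENSORLG00000013527 had 2371.1 RPKM in replicate 2 and 2436.2 RPKM in replicate 1. The eighth, ENSORLG00000013986+ENSORLG00000013987, joined consecutive identifiers and had 1958.9 RPKM in replicate 2 and 1972.5 RPKM in replicate 1. The replicate values of these 8 entries did not overlap from one entry to the next, except for the pair ENSORLG00000006863+ENSORLG00000006882 and ENSORLG00000003097+ENSORLG00000003130, whose order these replicates do not settle.

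The 8 entries that join 3 genes ranged from 0.240 to 870.7 RPKM by mean, and none was among the 9 joined entries at 1000 RPKM or more. ENSORLG00000016761+ENSORLG00000016770+ENSORLG00000016774, with 8 transcripts the entry with most transcripts, had 843.6 RPKM in replicate 2 and 897.8 RPKM in replicate 1. ENSORLG00000011597+ENSORLG00000011611+ENSORLG00000011726 had 42.4 RPKM in replicate 2 and 40.2 RPKM in replicate 1. Its identifier gaps were uneven, 14 and 115, the wider of which came last. ENSORLG00000014863+ENSORLG00000014867+ENSORLG00000014873 had 35.99 RPKM in replicate 2 and 43.8 RPKM in replicate 1. ENSORLG00000014628+ENSORLG00000014637+ENSORLG00000014661 had 32.9 RPKM in replicate 2 and 28.01 RPKM in replicate 1. These 2 entries differed between the replicates in opposite directions, and their ranges did not overlap. The range of ENSORLG00000014863+ENSORLG00000014867+ENSORLG00000014873 enclosed that of ENSORLG00000011597+ENSORLG00000011611+ENSORLG00000011726, so the replicates do not settle which of those is higher. ENSORLG00000020765+ENSORLG00000020767+ENSORLG00000020768, with gaps of 2 and 1, had 21.2 RPKM in replicate 2 and 21.3 RPKM in replicate 1. The remaining 3 were near or below the detection level. ENSORLG00000010031+ENSORLG00000010086+ENSORLG00000010144 had 2.11 RPKM in replicate 2 and 1.60 RPKM in replicate 1. ENSORLG00000019707+ENSORLG00000019711+ENSORLG00000019712 had 1.44 RPKM in replicate 2 and 0.643 RPKM in replicate 1, from 18 and 7 reads. ENSORLG00000011634+ENSORLG00000011637+ENSORLG00000011641, with 6 transcripts, was seen in replicate 2 alone, by 1 read.

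At the low end, 3 joined entries had no read in either replicate, 1.79% of the joined entries against 2.69% for lines of 1 gene in the same mix of transcript numbers. They were ENSORLG00000000157+ENSORLG00000000159, ENSORLG00000014244+ENSORLG00000014248 and ENSORLG00000013603+ENSORLG00000013610, each with 2 transcripts. Since 0 counted reads in the libraries together still allow 3, or 0.0656 per 1000000, silence cannot be told from a level below that limit. The lines around them differed. ENSORLG00000000157+ENSORLG00000000159 lay between lines that were also without reads, whereas the line before ENSORLG00000014244+ENSORLG00000014248 had a mean of 68.6 RPKM. Reads in 1 replicate alone were found for 3 further entries, with 1, 2 and 4 reads. Another 4 entries reached 1 RPKM in 1 replicate only, 3 of them in replicate 2 and 1 in replicate 1. Just above 1 RPKM by the mean lay ENSORLG00000019285+ENSORLG00000019292, with 1.16 RPKM in replicate 2 and 0.916 in replicate 1. Just below lay ENSORLG00000020891+ENSORLG00000021368, with 0.693 RPKM in replicate 2 and 0.608 in replicate 1.

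Joined identifiers were close in number but seldom consecutive. The distance from the lowest to the highest number in an entry had a median of 9, with the middle 50% between 5 and 21. It was 1 for 4 entries, 2 to 5 for 53, 6 to 10 for 34, 11 to 20 for 31, 21 to 50 for 34, 51 to 200 for 7 and over 200 for 5. The numbers are not genome coordinates. Numbers in the tables are dense, with a median step of 1 between successive identifiers, but the lines do not run in that order: the identifier of a line differed from that of the line before by a median of 14 (middle 50% 7 to 30). The distance inside joined entries was thus of the size found between lines that follow each other. Among the 163 joined entries at most 200 apart, 2422 times another line held an identifier numbered between the joined ones, and only 13 of those (0.537%) lay within 5 lines of the entry. Medians by distance were 109.9 RPKM at 1, 29.5 RPKM at 2 to 5 and 30.96 RPKM at 6 to 10. They were 71.5 RPKM at 11 to 20, 40.1 RPKM at 21 to 50 and 45.4 RPKM at 51 to 200. Up to 200 there was thus no steady order. The 5 entries over 200 apart had the lowest median, 5.45 RPKM, and 3 of them reached 1 RPKM in both replicates.

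**Figure D3:**
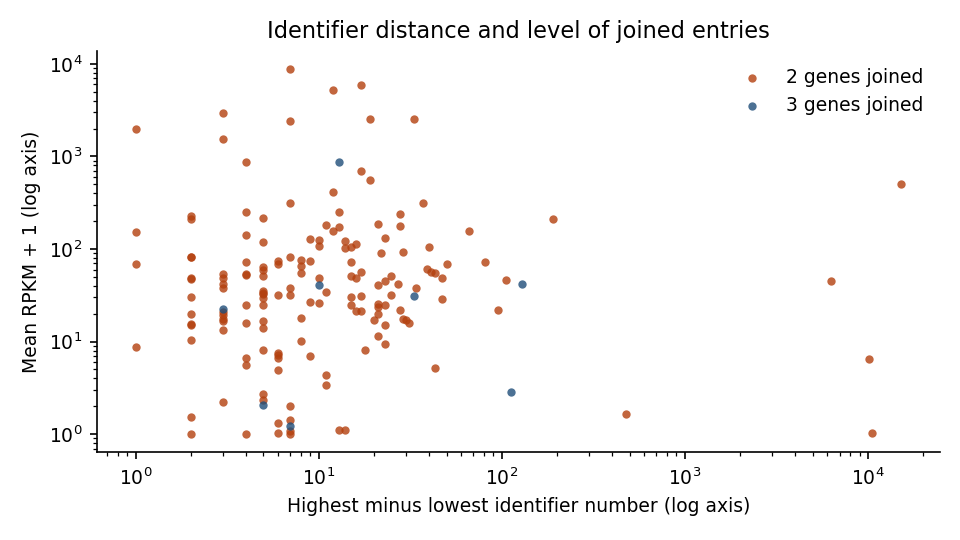
Mean RPKM + 1 against the highest minus the lowest identifier number of each joined entry, both on log axes, with entries of 2 and of 3 genes in different colours. Most entries lie between 1 and 50, and the 5 beyond 200 stand apart on the right.

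All 5 entries more than 200 apart joined a gene to one with a number of 21000 or higher, near the end of the numbering at 21747. Lines of 1 gene in that range were short and mostly silent: their median level was 0 RPKM over 648 lines, and the 188 with 1 transcript and reads in both replicates were 94 bp long at the median, while 13821 such lines with lower numbers had a median of 1215 bp. The widest, ENSORLG00000006443+ENSORLG00000021686, with a distance of 15243, had 524.2 RPKM in replicate 2 and 491.2 RPKM in replicate 1. It had 1586 reads in replicate 2 and 1502 in replicate 1, over implied lengths of 131.3 and 135 bp. Its level per length ranked among the top 20 joined entries, while its 3088 reads in all were not far from the joined median of 2074.5. ENSORLG00000011498+ENSORLG00000021609, at a distance of 10111 and an implied length of 88 bp, had 15 reads in replicate 2 and 7 in replicate 1. ENSORLG00000010971+ENSORLG00000021550, at a distance of 10579, had an implied length of 2526 bp and 1 read in replicate 2 and 3 in replicate 1. Joined entries with such a high number therefore came with short and with long implied lengths. Another of the 5, ENSORLG00000015160+ENSORLG00000021419, named after its values were seen, had 46.4 RPKM in replicate 2 and 42.96 RPKM in replicate 1 over 2304 bp.

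Joined entries often stood above the lines on either side of them. The line before a joined entry had a median of 9.63 RPKM and the line after a median of 10.1 RPKM, against 38.4 RPKM for the joined entries themselves. Around lines of 1 gene with several transcripts these medians were 8.51 and 7.51 RPKM. The joined entry exceeded both neighbours in 95 of 168 cases (56.5%), and lines of 1 gene with several transcripts did so in 38.4% of cases. Summed pairs of adjacent lines of 1 gene and 1 transcript exceeded the lines around them in 50.5% of cases. Divided by its number of genes, the joined level exceeded both neighbours in 66 cases (39.3%). Lines of 1 gene and 1 transcript exceeded both in 30.1% of cases. Of the 100 joined entries of 2 genes and 2 transcripts, undivided, 53% exceeded both neighbours, near the 50.5% of summed pairs. Across the 168 entries, Spearman's rho of the joined level with the line before was 0.13, with the line after 0.34 and with the mean of both 0.30. Over the 151 detected joined entries alone, these were 0.02, 0.29 and 0.20. For 3727 lines of 1 gene with several transcripts they were 0.13, 0.13 and 0.15. For 16362 lines of 1 gene and 1 transcript they were 0.17, 0.17 and 0.19. These are descriptions across lines of the same pair of libraries, and the sources used here do not say whether the order of lines follows the chromosomes.

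**Figure D4:**
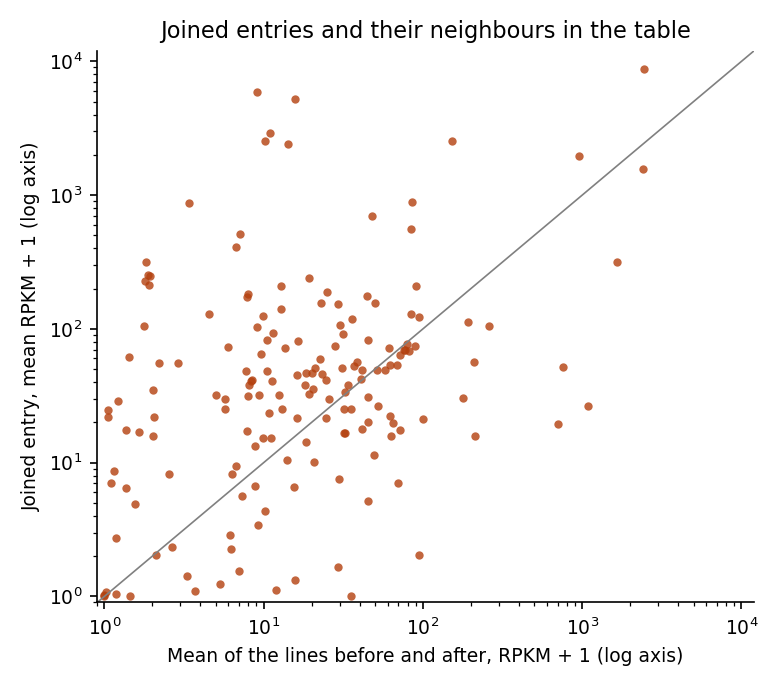
Mean RPKM + 1 of each joined entry against the mean of the lines before and after it, on log axes, with the line of equality. Points spread widely around the line, more of them above it, and the joined level exceeds both neighbours in 95 of 168 cases.

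The neighbours of the most abundant joined entries ranged from high to low. ENSORLG00000012618+ENSORLG00000012625 lay between lines of 1619.2 and 3250.5 RPKM, and a further joined entry followed 2 lines on. ENSORLG00000013986+ENSORLG00000013987 likewise lay between lines of 713.5 and 1189.7 RPKM. ENSORLG00000003097+ENSORLG00000003130 lay between lines of 65.5 and 236.1 RPKM. In contrast, ENSORLG00000009244+ENSORLG00000009261 lay between lines of 14.7 and 1.48 RPKM, and ENSORLG00000015732+ENSORLG00000015744 between lines of 13.3 and 16.3 RPKM. Low lines also stood around ENSORLG00000006304+ENSORLG00000006307 (1.69 and 18.2 RPKM), ENSORLG00000006863+ENSORLG00000006882 (0.380 and 17.9 RPKM) and ENSORLG00000013520+ENSORLG00000013527 (26.3 and 0.228 RPKM). All 7 joined entries at 2048 RPKM or more exceeded both neighbours, and the median of their neighbours was 17.1 RPKM. The 17 joined entries that did not reach 1 RPKM in both replicates, of which 13 were under it in both and 4 in 1 only, had neighbours with a median of 1.05 RPKM, against 10.96 RPKM around the 151 detected ones. Both neighbours were at 1 RPKM or more for 5 of the 17 (29.4%), for 92 of the 151 (60.9%) and for 53.3% of lines of 1 gene with several transcripts.

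The 2 pools gave closely similar counts for joined entries. Of the 168, 159 had at least 10 reads over both replicates, and their median absolute log2 ratio of replicate 2 over replicate 1 was 0.05, a 1.04-fold difference. It was 0.09, or 1.07-fold, for 3346 lines of 1 gene with several transcripts. Joined entries held more reads, with a median of 2074.5 against 791 over both replicates, and lines with more reads differ less by counting noise alone. From 1000 to under 10000 reads the median ratio was 1.037-fold for 96 joined entries and 1.042-fold for 1497 lines of 1 gene. At 10000 reads or more it was 1.020-fold for 25 joined entries and 1.028-fold for 159 lines of 1 gene. From 100 to under 1000 reads it was 1.066-fold for 28 joined entries and 1.094-fold for 1163 lines of 1 gene. The medians of joined entries were thus lower from 100 reads upwards, by small amounts that were not tested. Below 100 reads the order was the other way, at 1.88-fold for 10 joined entries and 1.38-fold for 527 lines of 1 gene.

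**Figure D5:**
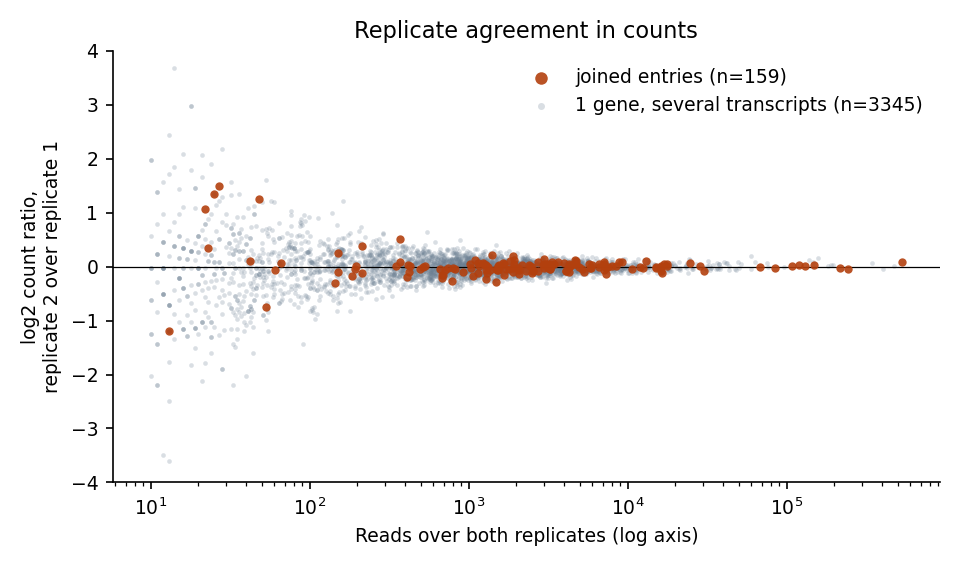
Log2 ratio of counts per 1000000, replicate 2 over replicate 1, against the reads over both replicates (log axis), for 159 joined entries and 3345 lines of 1 gene with several transcripts that have reads in each replicate. Joined entries keep near 0 from about 100 reads upwards, and those over 2-fold apart have under 50 reads.

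Differences over 2-fold were seen in 5 of the 159 joined entries (3.14%). Of all lines with at least 10 reads 3.4%, and of lines of 1 gene with several transcripts 2.99%, were so far apart or read in 1 replicate only. All 5 were among the 10 joined entries with 10 to under 100 reads, and 4 of them were higher in replicate 2. Among 527 lines of 1 gene with several transcripts in that range, 99 were over 2-fold apart (18.8%). From 50 reads upwards no joined entry was 2-fold apart. There the largest excess in replicate 2 belonged to ENSORLG00000019994+ENSORLG00000019997, at 220 reads in replicate 2, against 152 in replicate 1, for a log2 ratio of 0.51. ENSORLG00000010031+ENSORLG00000010086+ENSORLG00000010144 followed, at 122 reads in replicate 2, against 92 in replicate 1, for a log2 ratio of 0.38. These were modest differences on few reads. The exact binomial test described below nevertheless called the first (adjusted p 0.0223), but not the second (adjusted p 0.275). In the other direction, ENSORLG00000009766+ENSORLG00000009771 had 20 reads in replicate 2, against 33 in replicate 1, for a log2 ratio of -0.75. ENSORLG00000019131+ENSORLG00000019137 had 65 reads in replicate 2, against 79 in replicate 1, for a log2 ratio of -0.31.

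Exact binomial tests of the reads, two-sided and adjusted over all 16588 lines with at least 10 reads by the Benjamini-Hochberg method, compare these libraries and not a condition. They called 14 of 159 joined entries (8.81%) at an adjusted p under 0.05, beside 6.08% of all lines and 6.31% of lines of 1 gene with several transcripts. Called higher in replicate 2 were 7 of the 159 (4.4%), and called higher in replicate 1 were 7 (4.4%). The like shares were 2.69% and 3.39% of all lines and 2.84% and 3.47% of lines of 1 gene with several transcripts. With scaling to a median log2 ratio of 0 there were 19 calls among the 159, beside 5.76% of all lines. Of the 159, 13 were then called higher in replicate 2, beside 3.41% of all lines. The share of joined calls higher in replicate 2 was thus 68.4%, against 50% as first scaled. The calls over all lines moved the same way, from 446 of 1009 higher in replicate 2 as first scaled to 566 of 955. Most calls had many reads: 10 of the 25 joined entries with 10000 reads or more were called (40%), against 53 of 159 lines of 1 gene with several transcripts in that range (33.3%). From 1000 to under 10000 reads the order was the other way, with 3 of 96 joined entries (3.12%) against 105 of 1497 lines of 1 gene (7.01%). From 100 to under 1000 reads it was 1 of 28 (3.57%) against 36 of 1163 (3.10%). The joined call in that range was ENSORLG00000019994+ENSORLG00000019997, which at 1.42-fold had the largest difference among the 14 called. ENSORLG00000012618+ENSORLG00000012625 had the smallest exact binomial adjusted p of the joined entries, 1.01e-80, for a 1.05-fold difference. Its squared deviation from the expected split was 380 times the sampling variance. The mean of that ratio over the joined entries was 5.54 with it and 3.17 without it, and the median was 0.887. With the variance scaled by the mean ratio of all lines, 2 joined entries were called, beside 58 of all lines (0.35%). That mean, 2.86, was used for every line. Over all lines with 10000 reads or more the mean ratio was 15.7, so the scaling was too weak where 10 of the 14 calls lay.

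Level and count gave different answers for some joined entries. Among the 158 with at least 20 reads and reads in both replicates, the log2 ratio of replicate 2 over replicate 1 in RPKM and in counts differed by more than 0.1 for 14 (8.86%), beside 11.5% of all 3382 lines with several transcripts and 11.7% of those of 1 gene. A difference of more than 0.5 was found for 4 (2.53%), beside 0.828% and 0.744%. ENSORLG00000019994+ENSORLG00000019997 had 25.8 RPKM in replicate 2 and 7.22 RPKM in replicate 1, on 220 and 152 reads. Its implied length was 370.3 bp in replicate 2 and 929.3 bp in replicate 1, and the RPKM ratio exceeded the count ratio by 1.33 on the log2 scale. ENSORLG00000009359+ENSORLG00000009361 was the reverse case, with 0.519 RPKM in replicate 2 and 0.559 RPKM in replicate 1 on 34 and 14 reads. Its implied length was 2840.5 bp in replicate 2 and 1105.1 bp in replicate 1. The replicates of this entry were thus close in RPKM and 2.39-fold apart in counts. Implied lengths of the replicates lay within 0.1 of each other on the log2 scale for 147 of 162 entries and were over 2-fold apart for these 2.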

How the data were processed

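RNA-seq libraries of 2 pools of whole embryos were analysed from 1 table each. The authors deposited, per the file headers, an RPKM value and the count of raw reads behind it for each line, with Ensembl gene and transcript identifiers. TopHat is named in the submitters' processing notes; the sources used here give no counting program, genome build or annotation release. The deposited lines were used as they stand. Counts were scaled to the 23055861 and 22661195 counted reads of replicates 2 and 1. Implied lengths used library totals of 23045699 and 22650004, found as the values that make the lengths of lines with 1 transcript whole. Levels were set beside lines of 1 gene within each number of transcripts. The exact binomial test and the stratified difference were tested on simulated data. The simulation of the binomial test used counting noise alone and planted differences larger than those called among joined entries. It does not show how that test behaves with the wider spread of these libraries. Python 3.11.15, numpy 2.4.6, pandas 2.3.3, scipy 1.17.1 and matplotlib 3.10.9 were used. Depth limits lines with few reads: 9 joined entries had under 10. Members, tests and named entries were chosen with earlier results of these data known. The rule named the 8 highest joined entries, all that join 3 genes, all without reads, the 2 largest and 2 smallest count ratios from 50 reads, the 2 largest disagreements of RPKM and count from 20 reads, the 3 widest distances, and the entries next to 1 RPKM. Alternatives covered thresholds, units, pseudocounts (1 or 0.1), scaling, replicates and comparison lines.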

Additional observations from a re-analysis of the deposited data

How the results depend on the processing

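No paired analysis was possible because both samples belong to the same group. The 151 detected entries became 162 with any value, 157 from 0.5 RPKM, 143 from 5 RPKM and 155 from 10 reads, and 152 to 154 with 1 replicate left out. The median level of 38.4 RPKM became 45.4 in counts per 1000000, 41.3 from 10 reads and 40.03 for entries of 2 genes (37.4 to 39.6 with 1 replicate left out). The log2 difference of 1.34 from lines of 1 gene became 1.39 in counts per 1000000, 2.20 against all lines of 1 gene, 1.55 against those with several transcripts pooled, 1.29 from 10 reads, 1.43 for 2 or 3 transcripts, 0.37 per gene and 0.41 against summed adjacent pairs (1.32 to 1.36 with 1 replicate left out); the last 3 settings before the replicates were chosen after seeing the data, and no setting turned its sign. The share of reads of 4.95% became 3.79% without the top entry (4.93% to 4.98% with 1 replicate left out). The median absolute log2 ratio of 0.0526 became 0.0636 in RPKM, 0.0583 scaled to a median ratio of 0, 0.0511 from 50 reads and 0.0524 without a filter. Binomial calls fell to 2 of 14 with the variance scaled. The median distance of 9 became 8.5 by smallest gap and 8 without identifiers from 21000. The median neighbour of 9.75 RPKM became 9.30 in counts per 1000000 and 10.96 around detected entries (9.57 to 9.92 with 1 replicate left out). The 14 disagreements of RPKM and count became 4 at 0.5 log2. Both settings on identifiers from 21000 and detected entries were also chosen after seeing the data. Leaving out a replicate gives no value for ratios of the replicates.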
